A study of Mus musculus with 6 samples.

Results

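Mitochondrial DNA (mtDNA) is copied, packaged and transcribed by proteins that are encoded in the nucleus. To ask whether transcripts for this machinery differ when hepatocytes lack STING, 10 genes were examined: *Tfam*, *Polg*, *Polg2*, *Twnk*, *Ssbp1*, *Tfb1m*, *Tfb2m*, *Polrmt*, *Lonp1* and *Sirt3*. They were taken by gene symbol from a table of 57180 genes by a rule that uses no measured value, although earlier results of these data were known when the genes were chosen. All 10 passed the low-count filter, which kept 14151 genes for testing.

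Primary hepatocytes were isolated from livers of male mice and cultured in medium with 0.1 µM dexamethasone and 10% fetal bovine serum. Every culture was exposed for 24 h to the saturated fatty acid palmitate at 0.1 mM, so the comparison holds no untreated cells. The 3 LOXP libraries came from mice with a floxed *Sting1* gene, and the 3 KO libraries from floxed mice that also carried Albumin-Cre, which deletes the gene in cells with an active albumin promoter. The study describes its animals in general as C57BL/6 mice aged 8 to 10 weeks. The labels do not say whether libraries of a group came from separate mice or separate cultures, so p-values measure only the spread between these libraries, which may be technical.

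Libraries held 14726983 to 18536985 counted reads. *Sting1*, the targeted gene, had 19, 16 and 23 counts in the LOXP libraries and 24, 23 and 15 in the KO libraries. The loss of *Sting1* was thus not seen in these counts (log2 fold change -0.08, 95% interval -0.76 to 0.60, edgeR adjusted p = 0.883). By RT-PCR, the study reported this transcript in hepatocytes and its loss in knockout hepatocytes. The exons that were floxed are not given in the sources used here. Reads from exons that remained, from other cell types in the culture and from an intact hepatocyte transcript thus cannot be told apart. KO below therefore means the libraries labelled KO. Of 19 hepatocyte markers tested, 15 were lower in KO and none was higher, beside 11.6% of all tested genes lower and 11.5% higher. Their summed levels were 36000 to 39600 CPM in LOXP and 26700 to 28200 CPM in KO, where CPM are counts scaled to an equal, normalized library size. In bulk RNA, fewer cells of a type and less RNA per cell cannot be told apart, and the part of this shift in the results below was not tested. Lymphocyte markers were close to absent, with 13 of 15 at 0 counts in all libraries, and no neutrophil marker of 11 passed the filter. Summed macrophage markers reached 258 to 276 CPM in LOXP and 202 to 225 CPM in KO. Of 18 tested, 3 were lower, none was higher and 11 had a negative log2 fold change. *Cd68*, 1 of the 3, fell from a mean of 78.7 to 43.1 CPM, so the sum does not stand for every macrophage marker.

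As background, mtDNA is a circular genome that is replicated and transcribed inside mitochondria. The polymerase made of POLG and its accessory subunit POLG2 copies it behind the helicase Twinkle (*Twnk*), while SSBP1 coats the exposed single strand. TFAM coats and bends mtDNA and, with TFB2M, places the RNA polymerase POLRMT on the mitochondrial promoters. TFB1M methylates the small mitochondrial ribosomal RNA, LONP1 is a matrix protease that degrades TFAM that is not bound to DNA, and SIRT3 is the main deacetylase of the matrix. When mtDNA reaches the cytosol it can be bound by cGAS, whose product activates STING, and in liver this route links stressed mitochondria to inflammation.

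Promoters of nuclear genes for mitochondrial proteins are known for sites of ETS factors such as GABP and of NRF1, so the promoter letters of the 10 genes were read from RefSeq (GRCm38.p6), from 250 bases before to 50 bases after each listed start. All 10 genes matched, with 12 promoters, since *Sirt3* and *Twnk* have more than 1 listed start. The letters CCGGAAG, the core bound by ETS factors, were found on either strand in 7 of 10 genes, against 20.4% of the 9794 tested genes with a promoter in the table and 9.93% of all 27025 genes in it. Levels did not overlap between the groups in 3 of the 10 genes, *Polg2*, *Ssbp1* and *Sirt3*, against 40.7% of all tested genes. These 3 share the motif with *Tfam*, *Polg*, *Twnk* and *Polrmt*, whose levels overlapped. A link between the motif and the levels was not tested. The windows that hold the letters are shown for all 7 genes. Each is written 5′ to 3′ on the gene's strand, with the match in capitals, where CTTCCGG is the same motif on the opposite strand. Positions count from the listed start, whose first transcribed base is 1, and coordinates are GRCm38.p6.
Tfam, chr10:71238063-71238113, minus strand, bases -47 to -41: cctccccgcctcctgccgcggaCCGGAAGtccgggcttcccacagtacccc
Polg, chr7:79466283-79466333, minus strand, bases -38 to -32: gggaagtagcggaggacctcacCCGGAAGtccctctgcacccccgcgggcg
Polg2, chr11:106779538-106779588, minus strand, bases -29 to -23: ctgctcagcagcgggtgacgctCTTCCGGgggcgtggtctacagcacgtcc
Ssbp1, chr6:40471399-40471449, plus strand, bases -47 to -41: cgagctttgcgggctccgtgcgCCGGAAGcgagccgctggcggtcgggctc
Polrmt, chr10:79746596-79746646, minus strand, bases -43 to -37: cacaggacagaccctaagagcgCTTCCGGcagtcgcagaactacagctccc
Sirt3, chr7:140882366-140882416, minus strand, bases -85 to -79: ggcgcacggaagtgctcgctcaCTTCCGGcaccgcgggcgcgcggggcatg
Twnk, upstream match, chr19:45006426-45006476, plus strand, bases -110 to -104: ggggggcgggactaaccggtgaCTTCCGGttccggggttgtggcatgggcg
Twnk, downstream match, chr19:45006470-45006520, plus strand, bases -66 to -60: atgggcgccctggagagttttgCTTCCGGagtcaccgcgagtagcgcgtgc

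In 6 of these 7 genes the match, or the nearer match, lay between bases -66 and -23 of the listed start, and in *Sirt3* it lay at -85 to -79. *Tfb1m*, *Tfb2m* and *Lonp1* did not hold these letters in this window. The NRF1 consensus, searched on both strands, was found only in *Polrmt* among the 10 genes, as overlapping copies at its start, against 11.4% of tested genes. The first copy, at bases -6 to 4, is shown because it spans the start itself.
Polrmt, chr10:79746556-79746609, minus strand, bases -6 to 4: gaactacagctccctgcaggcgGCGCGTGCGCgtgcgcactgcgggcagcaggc

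The GC box GGGCGG, bound by SP1, was in 8 of 10 genes against 67.9% of tested genes. The E-box CACGTG was in *Lonp1* alone among the 10 (11.8% of tested genes), and the YY1 letters AAGATGG were in none (8.59% of tested genes). Matches of different motifs did not overlap each other in the promoters of the 10 genes. A match is a description of letters and not of a bound site.

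In the comparison of KO with LOXP, 2 of the 10 genes passed an adjusted p under 0.05, against 23.1% of all genes tested. *Polg2* was lower, where 11.6% of tested genes were lower, and *Ssbp1* was higher, where 11.5% were higher. The 2 of 10 is thus near the share among all genes. Both passed narrowly. Both lost their call whenever any single library was left out and by DESeq2. None of the 10 met the study's criteria (2.05% of tested genes did), which ask for a log2 fold change beyond 1 either way, a group mean FPKM over 1 and the same adjusted p, and by edgeR's unadjusted p, 3 of 10 were under 0.05 against 35.9% of tested genes. The median log2 fold change of the 10 genes was 0.05 and that of all tested genes 0. Their median absolute log2 fold change was 0.11, and that of all tested genes was 0.21. Levels in the KO and LOXP libraries did not overlap for 3 of the 10 genes against 40.7% of tested genes. *Polg2* and *Sirt3* were lower without overlap, as were 20.3% of tested genes, and *Ssbp1* was higher without overlap, as were 20.4%.

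**Figure D1:**
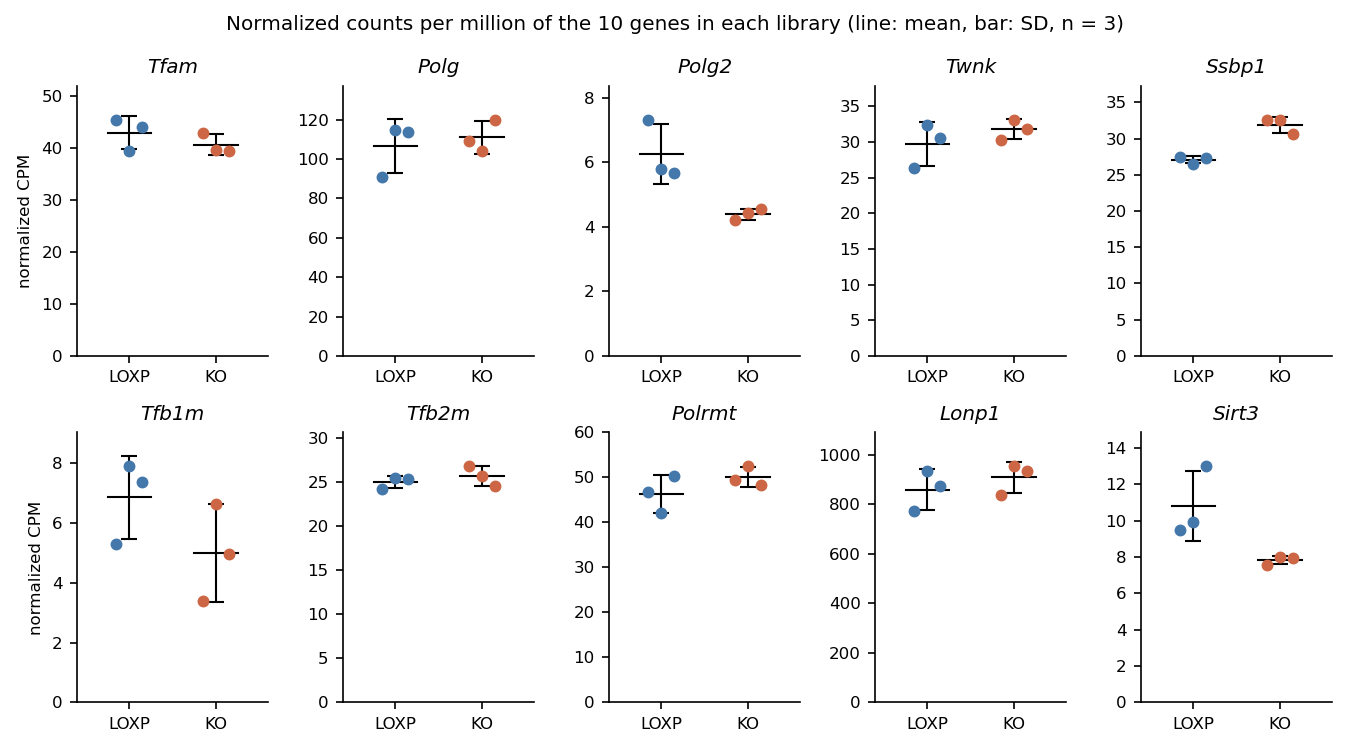
Normalized CPM of each of the 10 genes in the 3 LOXP and 3 KO libraries, each panel with its own axis from 0, with the mean as a line and the SD as a bar. KO and LOXP points are apart in *Polg2*, *Ssbp1* and *Sirt3* and overlap in the other 7 genes.

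*Polg* and *Polg2* encode the catalytic and the accessory subunit of the replicative polymerase. *Polg2* (ENSMUSG00000020718, GRCm39 chromosome 11 from 106659079 to 106670363) had 116, 83 and 86 counts in the LOXP libraries and 66, 82 and 78 in the KO libraries. Normalized by TMM, these were 7.32, 5.80 and 5.66 CPM in LOXP and 4.21, 4.42 and 4.55 CPM in KO. LOXP replicate 1 was the highest library, and every KO library was below every LOXP library. The mean fell from 6.26 ± 0.919 to 4.39 ± 0.173 CPM (SD, n = 3), a log2 fold change of -0.51 (SE 0.159, 95% interval -0.87 to -0.15, edgeR adjusted p = 0.0496). Without LOXP replicate 1 the log2 fold change of *Polg2* was -0.38, and over the 6 libraries left out in turn it ran from -0.58 to -0.38. An exact permutation test of 3 against 3 libraries gave p = 0.1 for *Polg2*, the smallest it allows.

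*Polg* (ENSMUSG00000039176, chromosome 7 from 79095979 to 79116110) had 91.0, 115 and 114 CPM in LOXP and 109, 104 and 120 CPM in KO. LOXP replicate 1 was the lowest library, and the groups overlapped. Its log2 fold change was 0.06 (95% interval -0.17 to 0.29, edgeR adjusted p = 0.724), and without LOXP replicate 1 it turned to -0.05. A change of *Polg* beyond 1.22-fold up or 0.889-fold down lay outside the interval.

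The ratio of *Polg* to *Polg2* was compared within each library. The size of such a ratio depends on the gene lengths behind it, whereas its log2 difference between the groups does not. By FPKM (counts scaled to gene length and to the counted reads of the library) the ratio was 4.27, 6.78 and 6.89 in LOXP and 8.91, 8.04 and 9.03 in KO. Every KO library was above every LOXP library, and LOXP replicate 1 was the lowest. The log2 ratio was 0.57 higher in KO (exact permutation p = 0.1, and 0.2 after Benjamini-Hochberg adjustment over the 4 ratios tested). Without LOXP replicate 1 the difference was 0.34. As 3 against 3 libraries allow no exact p below 0.1, the design could not pass the threshold for this ratio.

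At the replication fork, *Ssbp1* and *Twnk* were next in the order of roles. *Ssbp1* (ENSMUSG00000029911, chromosome 6 from 40448286 to 40461634), the single-stranded DNA binding protein, had 27.5, 26.5 and 27.3 CPM in LOXP and 32.5, 32.6 and 30.6 CPM in KO. Its libraries were close within each group, and all 3 KO libraries were above all 3 LOXP libraries. The mean rose from 27.1 ± 0.5 to 31.9 ± 1.15 CPM (SD, n = 3), a fold of 1.18 (95% interval 1.05 to 1.32, log2 fold change 0.24, SE 0.071, edgeR adjusted p = 0.0448). The spread of *Ssbp1* within groups, an SD of 0.0417 on the log2 scale, was larger than that of 2.83% of genes of a like level. Left-out libraries moved its log2 fold change between 0.22 and 0.27.

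*Twnk* (ENSMUSG00000025209, chromosome 19 from 44994102 to 45001201), the helicase, had 26.3, 32.3 and 30.5 CPM in LOXP and 30.3, 33.1 and 31.8 CPM in KO. The groups overlapped, with LOXP replicate 1 again the lowest. Its log2 fold change was 0.10 (95% interval -0.11 to 0.31, edgeR adjusted p = 0.5). *Mrpl43*, a gene of the mitochondrial ribosome on the opposite strand, overlaps *Twnk* by 780 bases and had 4944 counts in all against 2976 for *Twnk*. *Mrpl43* fell (log2 fold change -0.32, SE 0.0669, edgeR adjusted p = 0.0112). The overlaps given for neighbours are of whole gene spans, introns included, and overlap of exons was not computed. The strand setting of the counting is not given in the sources used here, so reads from shared bases cannot be told apart. The FPKM ratio of *Twnk* to *Polg* was 1.31, 1.28 and 1.22 in LOXP and 1.26, 1.45 and 1.21 in KO, a log2 difference of 0.04 (exact permutation p = 0.9, adjusted 0.9), and it turned to -0.04 without KO replicate 2.

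Among the factors that package and transcribe mtDNA, *Tfam* (ENSMUSG00000003923, chromosome 10 from 71061294 to 71074110) had 45.4, 39.3 and 44.0 CPM in LOXP and 42.9, 39.5 and 39.4 CPM in KO. All KO libraries lay within the LOXP range, the lowest of which was LOXP replicate 2. The means were 42.9 ± 3.18 and 40.6 ± 1.98 CPM (SD, n = 3), a fold of 0.946 with a 95% interval from 0.834 to 1.07 (log2 fold change -0.08, SE 0.0795, edgeR adjusted p = 0.522). A fall of *Tfam* transcript below 0.834-fold was thus outside the interval, and a change smaller than that could not be resolved with these libraries.

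*Polrmt* (ENSMUSG00000020329, chromosome 10 from 79571957 to 79582415), the mitochondrial RNA polymerase, had 46.8, 42.0 and 50.3 CPM in LOXP and 49.5, 52.5 and 48.3 CPM in KO. The groups overlapped, with a log2 fold change of 0.11 (95% interval -0.08 to 0.30, edgeR adjusted p = 0.379). The FPKM ratio of *Tfam* to *Polrmt* was 1.70, 1.64 and 1.53 in LOXP and 1.52, 1.32 and 1.43 in KO. All KO ratios were below all LOXP ratios, the closest pair being LOXP replicate 3 and KO replicate 1. The log2 ratio was lower in KO by a difference of -0.19 (exact permutation p = 0.1, adjusted 0.2), although neither gene passed the test on its own. How often ratios of other gene pairs separate in this way was not tested. Among single genes, 40.7% of those tested did not overlap.

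*Tfb1m* and *Tfb2m* encode related proteins, the first an rRNA methyltransferase and the second the initiation factor that works with POLRMT. *Tfb2m* (ENSMUSG00000026492, chromosome 1 from 179355620 to 179373832) had 24.2, 25.5 and 25.3 CPM in LOXP and 26.8, 25.7 and 24.6 CPM in KO. The groups overlapped in a narrow range, and the log2 fold change was 0.04 (95% interval -0.14 to 0.21, edgeR adjusted p = 0.756). Its spread within groups was larger than that of 6.01% of genes of a like level. *Cnst*, which starts 103 bases away on the other strand, had a log2 fold change of 0.24 (edgeR adjusted p = 0.0854). Several neighbours of the 10 genes on the opposite strand held few reads, with 41 counts in all for *Fanci* and 0 for *Gm10616* beside *Polg*, 12 for *Milr1* beside *Polg2*, 24 for *1700102H20Rik* and 3 for *Cldn20* beside *Tfb1m*, and 0 for *Gm15480* beside *Tfb2m*.

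*Tfb1m* (ENSMUSG00000036983, chromosome 17 from 3569531 to 3608056) had 84, 113 and 112 counts in LOXP and 53, 123 and 85 in KO. After normalization these were 5.30, 7.90 and 7.37 CPM in LOXP and 3.38, 6.64 and 4.96 CPM in KO. The groups overlapped, and KO replicate 1 was the lowest library. Its log2 fold change of -0.45 was close in size to that of *Polg2*, but with an SE of 0.256 the 95% interval ran from -1.03 to 0.14 (edgeR adjusted p = 0.251). Without KO replicate 1 the log2 fold change of *Tfb1m* was -0.24, and without KO replicate 2 it was -0.71. The within-group SD of *Tfb1m*, 0.406 on the log2 scale, was the widest of the 10 genes and larger than that of 90.0% of genes of a like level. The gene span of *Tiam2*, on the opposite strand, overlaps that of *Tfb1m* by 12089 bases, introns included. *Tiam2* had 825 counts in all against 570 for *Tfb1m*, with a log2 fold change of -0.55 (SE 0.199, edgeR adjusted p = 0.0829). The FPKM ratio of *Tfb2m* to *Tfb1m* was 4.51, 3.17 and 3.39 in LOXP and 7.83, 3.81 and 4.89 in KO, overlapping between groups (log2 difference 0.53, exact permutation p = 0.2, adjusted 0.267). This difference was 0.24 without KO replicate 1 and 0.76 without KO replicate 2.

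**Figure D2:**
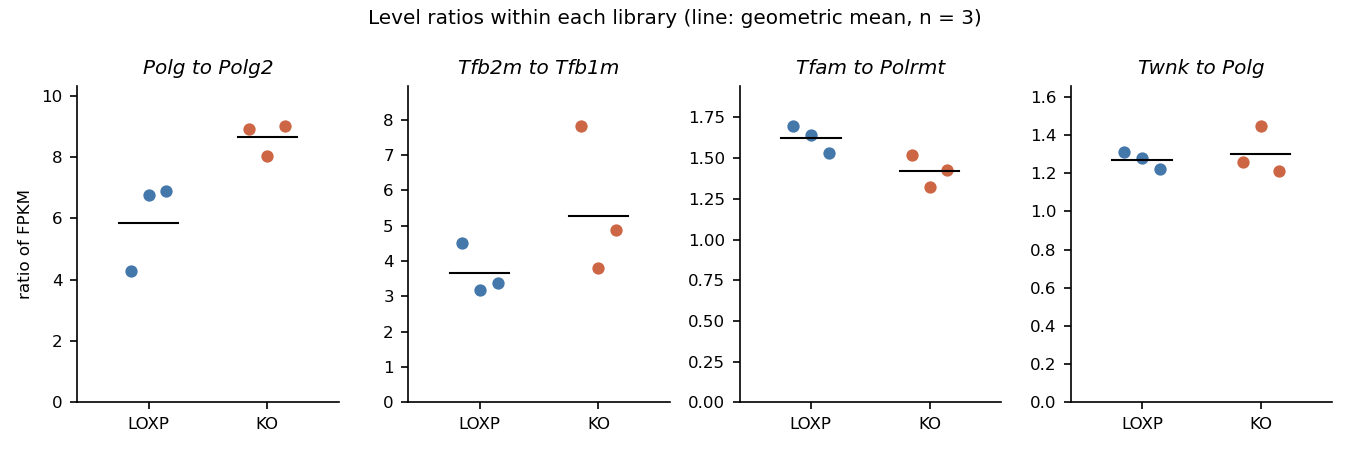
FPKM ratios of 4 gene pairs within each of the 3 LOXP and 3 KO libraries, each panel from 0, with the geometric mean as a line. The ratio of *Polg* to *Polg2* was higher and that of *Tfam* to *Polrmt* lower in all KO libraries, and the other ratios overlapped. Both had an exact permutation p of 0.1, the smallest that 3 against 3 libraries allow, and 0.2 after adjustment.

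*Lonp1* and *Sirt3* act on the proteins of the matrix. *Lonp1* (ENSMUSG00000041168, chromosome 17 from 56921297 to 56933887), the protease, had 772, 933 and 874 CPM in LOXP and 839, 954 and 935 CPM in KO. It was the most abundant of the 10 genes, above 99.3% of tested genes by level. The groups overlapped, with a log2 fold change of 0.08 (95% interval -0.10 to 0.26, edgeR adjusted p = 0.51).

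*Sirt3* (ENSMUSG00000025486, chromosome 7 from 140443579 to 140462222) had 150, 142 and 198 counts in LOXP and 119, 148 and 136 in KO. These were 9.47, 9.93 and 13.0 CPM in LOXP and 7.58, 7.99 and 7.93 CPM in KO. Every KO library was below every LOXP library, and LOXP replicate 3 was the highest. The means were 10.8 ± 1.94 and 7.83 ± 0.218 CPM (SD, n = 3). The log2 fold change of -0.46 (SE 0.147, 95% interval -0.80 to -0.13) had an unadjusted p of 0.0126 by edgeR's quasi-likelihood test and missed the threshold after adjustment (edgeR adjusted p = 0.0531). Without LOXP replicate 3 it was -0.31, and without LOXP replicate 1 it was -0.55 and passed the threshold (edgeR adjusted p = 0.039). *Psmd13* and *Ric8a*, on the opposite strand, overlap *Sirt3* by 342 and 707 bases in the table and had 11750 and 13225 counts in all against 893 for *Sirt3*. Their log2 fold changes were 0.06 (edgeR adjusted p = 0.502) and 0.11 (edgeR adjusted p = 0.29).

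**Figure D3:**
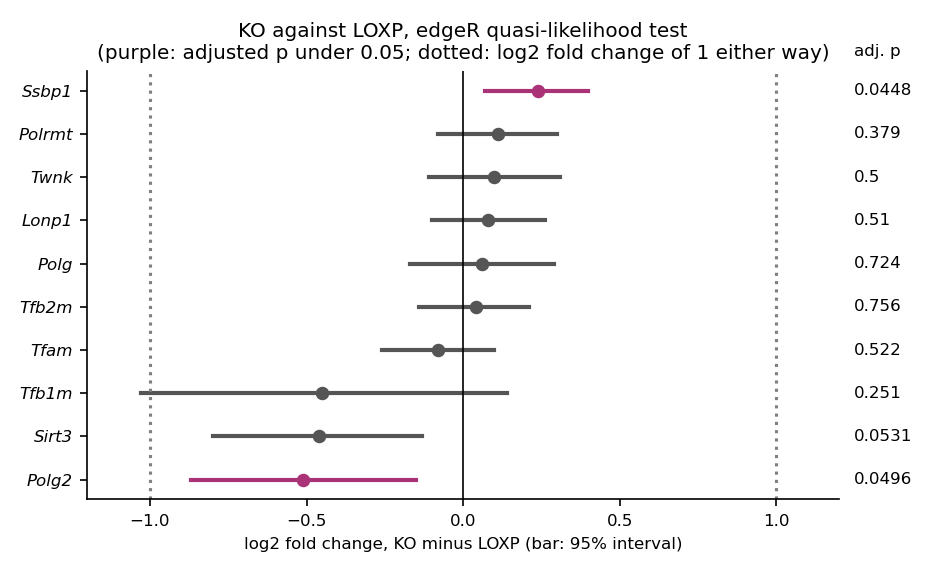
Log2 fold change of KO against LOXP for each of the 10 genes with its 95% interval, with edgeR's adjusted p at the right, purple where it is under 0.05, and dotted lines at a log2 fold change of 1 either way. Only the intervals of *Ssbp1*, *Sirt3* and *Polg2* leave out 0, and that of *Tfb1m* is the widest, from -1.03 to 0.14.

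Compared per length, *Lonp1* stood apart with a mean of 169 FPKM over the 6 libraries (148 to 183). *Tfam* (7.85 FPKM), *Twnk* (7.64), *Tfb2m* (6.24), *Polg* (5.96) and *Polrmt* (5.18) followed, and each of these overlapped its neighbour in the order. *Ssbp1* at 2.82 FPKM (2.47 to 3.15) overlapped neither *Polrmt* above it nor *Tfb1m* below it. The lowest were *Tfb1m* (1.47 FPKM), *Sirt3* (1.09) and *Polg2* (0.85), again overlapping from neighbour to neighbour. The gene lengths behind the deposited FPKM were longer than the longest principal transcript of each gene in GENCODE M21, at 18202 against 7837 bases for *Polg* and 8508 against 1461 bases for *Sirt3*. On the scale of CPM per kilobase of that transcript, *Lonp1* stayed first (300 CPM per kb) and *Polg2* last (3.54), but *Polg* (13.9) and *Polrmt* (12.8) moved ahead of *Tfam* (10.0). With the shortest principal transcript, *Ssbp1* came second at 31.6 CPM per kb. By the longest principal transcripts, the ratio of *Polg* to *Polg2* was 2.39 to 5.05 and that of *Tfb2m* to *Tfb1m* 1.84 to 4.55. Those of *Tfam* to *Polrmt* (0.678 to 0.874) and *Twnk* to *Polg* (0.598 to 0.718) were reversed from the FPKM ratios. The order between the first and the last gene therefore depended on the length used, whereas edgeR's fold changes and p-values came from counts and did not use it.

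**Figure D4:**
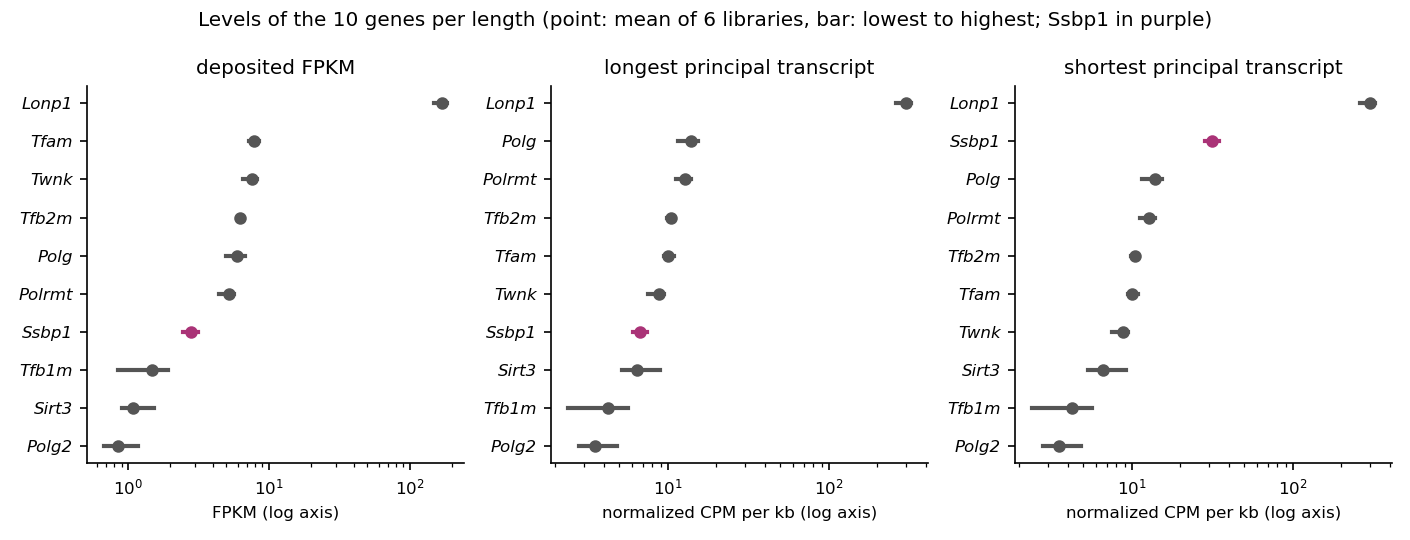
Levels of the 10 genes on 3 length scales with logarithmic axes, as the mean of 6 libraries (point) with the lowest and highest library (bar), ordered by mean, with *Ssbp1* in purple. *Lonp1* is first and *Polg2* last on each scale, while *Ssbp1* moves from rank 7 by FPKM to rank 2 with the shortest principal transcript.

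The transcripts made from mtDNA were counted in the same libraries. Genes of the mitochondrial chromosome took 4.65, 3.96 and 4.08% of counted reads in LOXP and 4.34, 4.11 and 3.86% in KO, overlapping between the groups (difference -0.127 percentage points, exact permutation p = 0.7). Without LOXP replicate 1 the difference was 0.082. By gene, 18 of the 37 genes of this chromosome were tested. Of these, 5 were lower and 2 were higher in KO at an edgeR adjusted p under 0.05, with a median log2 fold change of -0.07. Over all tested genes, 11.6% were lower and 11.5% higher.

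To set the 10 genes in their pathway, 95 further genes in 7 lists were examined, of which 93 were tested. Of these, 8 were lower and 12 were higher in KO, or 21.5% in all beside 23.1% of all tested genes. The shares to set beside each list are 11.6% of all tested genes lower and 11.5% higher. In mtDNA replication and repair, 3 of 16 tested genes rose and none fell (median log2 fold change 0.14). *Apex1*, an endonuclease of base excision repair, had 47.8, 47.8 and 44.6 CPM in LOXP and 68.8, 68.9 and 67.2 CPM in KO (log2 fold change 0.55, SE 0.0644, edgeR adjusted p = 0.000778). The KO libraries were all above the LOXP libraries. *Dna2*, a nuclease and helicase, and *Lig3*, the DNA ligase of mitochondria, rose by log2 fold changes of 0.40 and 0.23 (edgeR adjusted p = 0.0294 and 0.0322).

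Genes for the supply of mitochondrial nucleotides moved in both directions, with 2 of 16 lower and 3 higher (median -0.07). *Cmpk2*, a mitochondrial nucleotide kinase that is also an interferon-stimulated gene, fell from 9.47, 8.67 and 5.99 CPM to 4.08, 4.10 and 4.20 CPM (log2 fold change -0.96, SE 0.19, edgeR adjusted p = 0.00857). Every KO library was below every LOXP library. *Abat*, the GABA transaminase, fell (-0.80, edgeR adjusted p = 0.00631), and the carriers *Slc25a33* (0.33, edgeR adjusted p = 0.0224) and *Slc25a4* (0.28, edgeR adjusted p = 0.0415) rose.

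Among genes for the elongation and processing of mitochondrial transcripts, 2 of 22 tested rose and none fell (median 0.13). *Fastkd3*, an RNA-binding protein of mitochondria, had 10.4, 6.29 and 13.6 CPM in LOXP and 19.3, 21.3 and 20.5 CPM in KO (log2 fold change 1.01, SE 0.226, edgeR adjusted p = 0.0149). *Elac2*, which trims the 3′ ends of tRNAs, rose by 0.34 on the log2 scale (edgeR adjusted p = 0.027). LOXP libraries varied more than KO libraries for *Fastkd3*, and the groups did not overlap.

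Of 9 transcriptional regulators of mitochondrial biogenesis, 2 fell and 1 rose (median -0.10). *Ppargc1a*, the coactivator PGC-1α, had 3.22, 2.52 and 3.82 CPM in LOXP and 1.66, 0.755 and 1.75 CPM in KO (log2 fold change -1.21, SE 0.327, edgeR adjusted p = 0.03). *Gabpb1*, a subunit of the ETS factor GABP, fell (-0.36, edgeR adjusted p = 0.0271), and *Pprc1*, a relative of PGC-1α, rose (0.46, edgeR adjusted p = 0.0453). *Gabpa*, the subunit of GABP that binds DNA, and *Nrf1* were added after their values had been seen and did not pass the test, with log2 fold changes of 0.19 (95% interval 0.00 to 0.39, edgeR adjusted p = 0.147) and -0.10 (95% interval -0.28 to 0.07, edgeR adjusted p = 0.387). The 7 genes with the ETS letters in their promoters included 1 that fell (*Polg2*), 1 that rose (*Ssbp1*) and 5 that did not pass the test, beside 11.6% of all tested genes lower and 11.5% higher, so this count is near that of all genes.

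Of 12 mitochondrial proteases and chaperones, the list to which *Lonp1* is closest in function, 2 rose and none fell (median 0.08). *Hspd1*, the chaperonin HSP60, had 653, 612 and 603 CPM in LOXP and 893, 852 and 838 CPM in KO (log2 fold change 0.47, SE 0.0517, edgeR adjusted p = 0.000583), and *Hspa9*, the matrix HSP70, rose by 0.18 (edgeR adjusted p = 0.0179).

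*Sirt3* was set beside the other sirtuins and *Gstk1*, which encodes DsbA-L, a glutathione S-transferase of mitochondria. In this list 3 of 7 tested genes fell and none rose (median -0.31). *Sirt1*, a nuclear deacetylase, had 19.2, 17.8 and 16.2 CPM in LOXP and 14.1, 11.0 and 13.5 CPM in KO (log2 fold change -0.47, edgeR adjusted p = 0.0291). *Sirt7* (-0.42, edgeR adjusted p = 0.0385) and *Sirt2* (-0.31, edgeR adjusted p = 0.0419) fell as well, while *Sirt3* itself had -0.46 and missed the threshold. *Gstk1* had 17.7, 17.6 and 18.5 CPM in LOXP and 17.3, 13.7 and 13.3 CPM in KO. Its KO libraries were all below its LOXP libraries, with KO replicate 1 close to them (log2 fold change -0.28, 95% interval -0.55 to -0.01, edgeR adjusted p = 0.122).

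**Figure D5:**
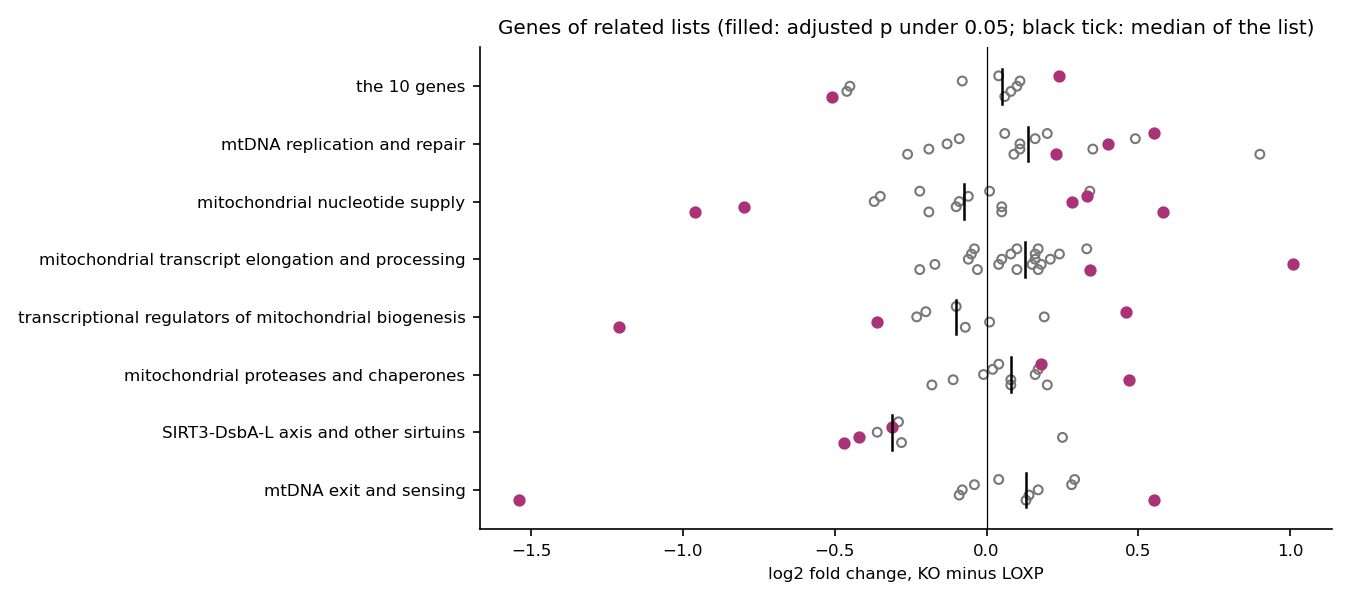
Log2 fold change of KO against LOXP for each tested gene of the 10 and of 7 related lists, 1 line per list, filled where edgeR's adjusted p is under 0.05, with a black tick at the median. The medians lie between -0.31 (the list with the other sirtuins) and 0.14 (mtDNA replication and repair). Of the single genes, *Trex1* (-1.54) lies farthest to the negative side and *Fastkd3* (1.01) farthest to the positive side.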

How the data were processed

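RNA from palmitate-treated primary hepatocytes was sequenced in 3 LOXP and 3 KO libraries, grouped by their labels. The submitters' processing notes name fastp, HISAT2, StringTie, edgeR and GRCm39, with no versions or order. The authors deposited 1 table with, per gene and library, an unnormalized whole-number read count and its FPKM. The FPKM divides the count by 1 fixed length per gene, and the annotation and strand setting are not given in the sources used here.

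The count table was tested with edgeR 4.0.16 under R 4.3.3, using filterByExpr (minimum count 10), TMM factors and the two-sided quasi-likelihood test over 14151 genes with Benjamini-Hochberg adjustment ("edgeR adjusted p"). Intervals are 95%. The biological coefficient of variation was 0.118, and replicates differed by more than counting noise (chi-square per degree of freedom 7.77 to 16.7). The steps were tested on simulated data. Single ratios and shares were compared by two-sided exact permutation tests, for which 3 against 3 libraries allow no p below 0.1.

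Positions of genes are from the table (GRCm39). Overlapping neighbours were found from these positions. The table gives no strand, so strands and transcript lengths were looked up by identifier in GENCODE M21 (GRCm38). Neighbours that start within 1000 bases on the opposite strand were also found in GENCODE M21, and promoters in RefSeq GRCm38.p6. No coordinates were converted.

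Named are the 10 genes, *Sting1*, *Gstk1*, up to 3 genes of smallest adjusted p in each direction of each list among those under 0.05, the neighbours of the 10 genes, the 5 genes most like *Tfam*, and, for each cell type, the 2 markers of highest level. *Krt19* is named as well, as the cholangiocyte marker that was higher. The genes and lists were chosen with earlier results of these data known. Alternatives were DESeq2 1.42.0, limma 3.58.1 on log2(FPKM + 1) and log2(FPKM + 0.1), other tests, factors and filters, a replicate block and each library left out. Both other gene lengths were chosen after seeing the data. The result for 1 gene of the lists is not reported here.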

Additional observations from a re-analysis of the deposited data

How the results depend on the processing

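Of 16 alternatives, *Polg2* passed the threshold in 5 (edgeR, DESeq2 or limma adjusted p from 0.0395 to 0.138) and *Ssbp1* in 3 (0.0449 to 0.141), each with an unchanged direction, and *Sirt3* passed in 3 (0.039 to 0.157). The other 7 genes passed in none. The count of lower genes among the 10, 1 as reported, was 2 by edgeR's likelihood ratio test and exact test, where *Sirt3* joined *Polg2*, and 0 by DESeq2, with every gene of at least 1 count, by limma on both FPKM scales and with the replicate block. The count of higher genes was 0 in each of these 7 alternatives. Leaving out a library gave 0 to 1 lower and 0 to 0 higher. Upper-quartile factors, factors without mitochondrial genes and a filter of 10 counts in every library kept both counts. The cause of these losses was not tested. Lower genes of the 7 lists numbered 3 with every gene of at least 1 count and on both FPKM scales, beside 8 as reported, and 3 to 7 without a library; higher genes numbered 6 to 12. Over all genes, leaving out a library gave 1052 to 1515 lower and 922 to 1510 higher genes, with 1052 and 922 without KO replicate 2 and 1088 and 1058 without KO replicate 1. Without a library, the *Polg* log2 fold change ran from -0.05 to 0.12, the *Twnk* to *Polg* log2 ratio from -0.04 to 0.09 and the difference in mitochondrial share from -0.261 to 0.082 percentage points. No alternative brought any of the 10 genes past the study's criteria, and their median log2 fold change ran from -0.02 to 0.09. Over all 6 libraries, the mean FPKM of *Polg2* was 0.989 in LOXP and 0.711 in KO. Both were under 1, so with these means *Polg2* could not meet the criteria at any fold change. Same-numbered libraries had correlations of 0.12, 0.10 and 0.00 in their deviations, so the numbers were not taken to pair samples. With the replicate block *Polg2*, *Ssbp1* and *Sirt3* had edgeR adjusted p = 0.0823, 0.0646 and 0.0631. The block lowered this value for other genes, among them *Tfb1m* (0.0757 against 0.251) and *Lonp1* (0.163 against 0.51). It raised the value for *Tfb2m* and *Polrmt*, and none of the 10 genes passed with it. The 95% interval of a log2 fold change reached a median of 0.20 to either side for the 10 genes and 0.26 for all tested genes.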

Other observations

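Of 11 tested genes for the exit of mtDNA from mitochondria and its sensing in the cytosol, 1 fell and 1 rose (median log2 fold change 0.13). *Trex1*, the exonuclease that degrades cytosolic DNA, had 4.42, 8.32 and 8.63 CPM in LOXP and 1.78, 2.70 and 2.80 CPM in the libraries labelled KO (log2 fold change -1.54, SE 0.293, edgeR adjusted p = 0.00733). Replicate 1 was the lowest library of each group, and the groups did not overlap. *Ppif*, cyclophilin D of the permeability transition pore, had 67.1, 87.1 and 81.8 CPM in LOXP and 111, 119 and 115 CPM in KO (log2 fold change 0.55, SE 0.0964, edgeR adjusted p = 0.00491). All KO libraries were above all LOXP libraries.

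Among 9208 genes with a mean of at least 10 CPM, the profile over the 6 libraries most like that of *Tfam* was that of *Casp8*, with a root mean square difference of 0.0181 on the log2 scale after centring. *Rtraf* (0.0259), *Auh* (0.0265), *Fam120b* (0.0274) and *Micos10* (0.0285) followed. These are the smallest differences picked from 9208 genes. Whether the likeness goes beyond counting noise was not tested, so it does not show that these genes vary with *Tfam*. Of the 6 other genes of mtDNA maintenance at this level, *Tfb2m* was the closest to *Tfam* at rank 1322 (0.101) and *Polrmt* came next at rank 2270 (0.121).

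The most abundant hepatocyte markers were *Alb*, with a log2 fold change of -0.27 (edgeR adjusted p = 0.00319), and *Hpx*, with -1.33 (edgeR adjusted p = 4.24e-05). Of the macrophage markers, *Cd14* had -0.03 (edgeR adjusted p = 0.84) and *Cd68* fell by 0.87 on the log2 scale (edgeR adjusted p = 0.000421), with 3 of 18 tested markers lower and none higher. Of 13 endothelial markers 1 was lower, with *Cdh5* at 0.01 and *Lyve1* at -0.20, and of 12 stellate cell and fibroblast markers none passed the test, with *Ecm1* at -0.13 and *Sparc* at -0.04. Cholangiocyte markers had 3 lower and 1 higher of 5 tested. *Cldn4* at -1.03 and *Sox9* at -0.87 were among the lower, and *Krt19* at 0.82 (edgeR adjusted p = 0.0479) was the higher. Over all tested genes, 11.6% were lower and 11.5% higher. *Ccl5* (172 counts in all) and *Cd79b* (4 counts) led the lymphocyte markers, and *Csf3r* (39 counts) and *S100a9* (4 counts) the neutrophil markers. The part of these markers in the values of the 10 genes was not tested.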
